A study of Mus musculus with 18 samples.

Results

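The question addressed was whether loss of HOIL-1 altered gene expression to the same extent at 2 consecutive stages of thymocyte differentiation. For each mouse, the level of a gene in CD69+ MHC I low cells was subtracted on the log2 scale from that in CD69+ MHC I high cells, and the 3 differences of Hoil ΔCd4 mice were compared with the 3 of wild-type (WT) mice. This is the interaction of genotype and fraction, and it was tested for the 12798 genes that reached 0.5 CPM (counts scaled to the library total) in at least 3 samples, of 27179 genes in the count files. The comparison rested on 12 of the 18 samples of the series, from 6 mice. The remaining 6 samples, from 3 Sharpin cpdm mice, contributed to the estimate of the spread and gave a second mutant for comparison.

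In Hoil ΔCd4 mice, a Cd4Cre transgene deletes a loxP-flanked fragment of Rbck1, the gene of HOIL-1, in T-lineage cells from the stage at which Cd4 is expressed. The fragment holds the promoter and exons 1 and 2, and the strain derives from 1 correctly targeted clone of C57BL/6 embryonic stem cells. Sharpin cpdm mice are without SHARPIN in every tissue and come from a C57BL/Ka stock crossed to C57BL/6 for 2 generations, so that they may differ from WT mice in background as well as in Sharpin. Ages were not given in the sources used here. Xist and Ddx3y levels were those of females in all 3 WT mice, in Hoil ΔCd4 mouse 3 and in Sharpin cpdm mouse 2, and those of males in the other mice. Both fractions of a mouse came from 1 thymus and were sorted without dead cells and without cells bearing CD25 or CD44, the γδ T-cell receptor, MHC II, or the lineage markers Mac-1, Gr1, B220 and NK1.1.

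HOIL-1, HOIP and SHARPIN form the linear ubiquitin chain assembly complex (LUBAC), which attaches linear ubiquitin chains to signalling proteins below receptors of the tumour necrosis factor family and the antigen receptor and thereby supports activation of NF-κB. Thymocytes display CD69 once their T-cell receptor has been engaged. Surface MHC class I rises as positively selected cells mature, so MHC I low cells are the earlier and MHC I high cells the later stage. During this step thymocytes leave the double-positive programme, gain the migration receptors of mature cells and begin to divide again.

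Samples held between 10577966 and 16266128 counts. The sort was visible in the genes of the sorted proteins. H2-K1 rose by 3.21 (SE 0.0503) on the log2 scale between the earlier and the later fraction in WT and by 3.28 in Hoil ΔCd4 mice, Klf2 and S1pr1, which guide exit from the thymus, rose in both genotypes, and Cd69 fell in both. None of these 4 genes, nor H2-D1, B2m or Ccr7, passed the test for a difference in change between genotypes (limma adjusted p from 0.205 for Klf2 to 0.981 for Ccr7). Klf2, whose changes did not overlap (4.11, 4.44 and 4.43 in WT and 3.75, 3.94 and 3.99 in mutant mice), was called by 1 paired test, limma on per-mouse differences (-0.47, adjusted p = 0.0323). Summed levels were low in every sample of the 2 genotypes for 6 B-cell genes (up to 5.97 CPM) and 8 myeloid and dendritic genes (13 CPM). The same held for 6 genes of thymic epithelium (11.8 CPM) and 5 erythroid genes (1.65 CPM), with Pax5 and Foxn1 at 0 in all 12 samples. The 6 regulatory T-cell genes summed to 831 to 1033 CPM in WT and 961 to 1096 CPM in mutant MHC I low cells. In MHC I high cells they summed to 596 to 697 and 500 to 632 CPM. Most of this was Ikzf2, and Foxp3 was at most 6.8 CPM. None of the 6 was called for its change, where 0.398% of all genes were. The changes of 2 did not overlap between genotypes, against 13.6% of all genes. Of 6 markers of natural killer and γδ T cells, only 3 had a count. They summed to 234 to 316 CPM in MHC I low and 46.4 to 66.6 CPM in MHC I high cells, most of it Il17rb. Ncr1 was at 0, and the γδ receptor genes Tcrg-C1 and Tcrg-C2 were not matched and so not assessed. In bulk samples such as these, fewer cells of a type and less RNA per cell cannot be told apart.

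The change between fractions was large and much alike in both genotypes. In WT mice 54.4% of the genes tested changed between fractions and in Hoil ΔCd4 mice 45.3% did. These shares depend on the error as well, which was larger for the mutant change (for H2-K1, SE 0.0619 against 0.0503 in WT). They therefore do not compare the size of the step. Across all genes tested, which are not independent replicates, the 2 sets of fold changes correlated with r = 0.884 and a slope of 0.898 for Hoil ΔCd4 on WT. Sets of genes chosen only in Sharpin cpdm mice gave the size of the step in the other mice. In those mice 54.6% of genes changed, and the 1017 that rose there by at least 1 on the log2 scale had a mean change of 1.67, 1.62 and 1.61 in the WT mice and of 1.66, 1.68 and 1.8 in the Hoil ΔCd4 mice. The 464 genes that fell there by as much had mean changes of -1.43, -1.35 and -1.33 in WT and -1.3, -1.35 and -1.33 in Hoil ΔCd4 mice.

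Against this background the change between fractions differed between Hoil ΔCd4 and WT mice for 51 genes (0.398% of those tested, limma with the mouse as a random block, Benjamini-Hochberg adjusted p under 0.05). For 38 genes (0.297%) the change was higher in the mutant and for 13 (0.102%) it was lower. The size of the difference ranged from 0.3 to 3.07 on the log2 scale, with Hes1 and Klrd1 left aside because their fitted values depend on the prior count, and the median over all 51 was 0.54, and over all genes tested the median was 0.003. In 50 of the 51 genes, the 3 mutant differences did not overlap the 3 WT differences, an arrangement found in 13.6% of all genes tested, with the mutant above WT in 7.45% and below in 6.16%. By the sign of the fitted changes, with no test of each, 26 of the 38 genes with a higher change were positive in both genotypes and more so in the mutant, 4 were negative in both and less so in the mutant, and 8 had opposite signs. Of the 13 with a lower change, 8 were less positive in the mutant, 4 were more negative and 1, Wdyhv1, had opposite signs. The mutant differed from WT more in MHC I high than in MHC I low cells for 30 of the 38 and 9 of the 13. The share of all genes tested with this order was not computed, so these counts are a description only. Over all genes tested, limma called 6.65% against WT in MHC I high and 0.985% in MHC I low cells.

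These calls rested on few mice. With limma, 0 genes were called when either WT mouse 3 or Hoil ΔCd4 mouse 3 was left out, with 859 and 1139 genes at an unadjusted p under 0.05 against 1338 in all mice. The counts were 7 without Hoil ΔCd4 mouse 2, 13 without WT mouse 1, 33 without Hoil ΔCd4 mouse 1 and 46 without WT mouse 2. With the mouse as a fixed block, edgeR called 73 genes, 39 of them among the 51, and DESeq2 called 33, 23 of them among the 51. A limma fit to 1 difference per mouse called 78, of which 38 were shared. With sex as a covariate limma called 36 genes, 22 of them among the 51. At least 1 of the 3 paired tests called 42 of the 51 genes, and all 3 called 22.

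**Figure D1:**
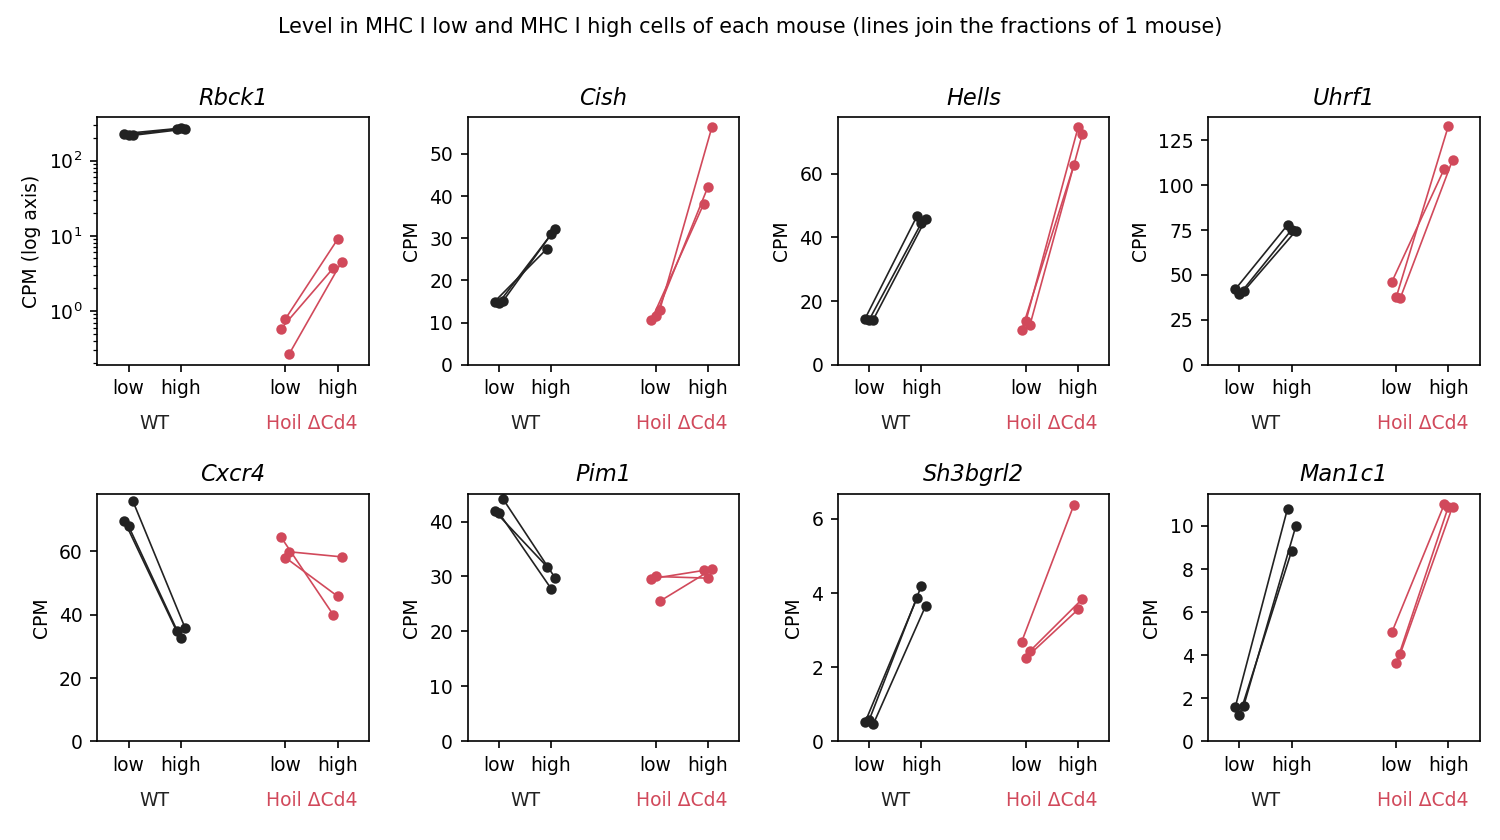
Level of 8 genes in CPM (y axis; logarithmic for Rbck1, from 0 for the others) in both fractions (x axis) of 3 WT mice (black) and 3 Hoil ΔCd4 mice (red), with a line joining the 2 fractions of a mouse. Cish and Hells started below WT levels and ended above them in the mutant, whereas Sh3bgrl2 and Man1c1 started above WT and ended near it. For Cish and Hells the earlier difference from WT did not pass the test (limma adjusted p = 0.216 and 0.483).

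Rbck1 itself (chr2:152316334-152332663, mm10) was examined first. The 150 bases just before its outermost annotated start are shown, since the promoter belongs to the deleted fragment, whose exact ends are not used here. They lie at chr2:152332664-152332813 on the minus strand (RefSeq, GRCm38.p6).
Rbck1 upstream: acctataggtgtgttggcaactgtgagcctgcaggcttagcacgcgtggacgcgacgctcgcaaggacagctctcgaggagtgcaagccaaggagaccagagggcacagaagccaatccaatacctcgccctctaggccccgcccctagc
In WT mice 1 to 3, Rbck1 stood at 229, 221 and 217 CPM in MHC I low cells and at 267, 268 and 263 CPM in MHC I high cells. In Hoil ΔCd4 mice 1 to 3 it stood at 0.581, 0.779 and 0.271 CPM, from 8, 9 and 4 counts, in MHC I low cells, and at 3.72, 8.94 and 4.51 CPM, from 49, 118 and 47 counts, in MHC I high cells. All mutant samples were far below all WT samples, and in each mutant mouse the later fraction held more Rbck1 than the earlier. The difference from WT was -8.63 on the log2 scale (SE 0.288) in MHC I low cells and -5.55 (SE 0.259) in MHC I high cells, and the difference in change was 3.07 (SE 0.342, limma adjusted p = 0.00422). Xist, which is silent in male cells, was at 0.593 CPM in the earlier and 63.6 CPM in the later fraction of Hoil ΔCd4 mouse 2, a mouse with 333 CPM of the Y-linked gene Ddx3y in the latter sample. Rbck1 was also highest, among mutant samples, in that sample, and whether RNA of another sample had a part in either value was not tested. Without that mouse the Rbck1 difference was 2.89 (limma adjusted p = 0.00083), and of the other 50 genes Hells, Cish, Pim1, Kif23 and Man1c1 were still called. Among the alternatives, the adjusted p of Rbck1 ranged from 4.36e-17 to 0.0599, and it missed the threshold without WT mouse 3 (3.07, adjusted p = 0.0599) and without Hoil ΔCd4 mouse 3 (2.71, adjusted p = 0.0517).

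The largest group among the genes with a higher change was the machinery of DNA replication. Of 68 genes of DNA replication and S phase, all tested, 9 rose more in Hoil ΔCd4 than in WT mice and none rose less (limma, adjusted p under 0.05). Over all genes tested, 0.297% had a higher and 0.102% a lower change. In 64 of the 68 the difference was positive, with a median of 0.33 on the log2 scale against 0.003 for all genes. In 30 of them (44.1%) the mutant differences lay above all WT differences, against 7.45% of all genes tested. The group rose between fractions in both genotypes, by a median of 0.98 in WT and 1.34 in Hoil ΔCd4 mice. Against WT, limma called 0 of the 68 genes in MHC I low cells, where 0.985% of all genes were called, with 7 at an unadjusted p under 0.05 and a median difference of 0.02. In MHC I high cells it called 34, all higher, where 6.65% of all genes were called and 3.84% were called higher, with a median difference of 0.4. The mean change over the 68 genes was 1.29, 1.21 and 1.19 in the WT mice and 1.41, 1.65 and 1.69 in the Hoil ΔCd4 mice, so that the 2 genotypes did not overlap and mutant mouse 1 lay nearest to WT. Under the 24 alternatives the median stayed between 0.29 and 0.44 with 61 to 67 positive differences, while the number of calls ranged from 0 to 11, with 0 without WT mouse 3 or Hoil ΔCd4 mouse 3, 1 without Hoil ΔCd4 mouse 2, 2 without WT mouse 1 and 4 without Sharpin cpdm mouse 2.

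Hells encodes a chromatin remodeller of the SNF2 family that is needed for DNA methylation. It stood at 14.4, 14.1 and 14.2 CPM in MHC I low cells and 46.8, 44.5 and 45.6 CPM in MHC I high cells of the WT mice. The Hoil ΔCd4 mice held 10.8, 13.7 and 12.6 CPM in MHC I low and 62.7, 74.5 and 72.3 CPM in MHC I high cells. The mutant values were thus below all WT values at the earlier stage and above all of them at the later stage. Only the later difference passed the test (-0.22, limma adjusted p = 0.483 and 0.62, adjusted p = 0.000195). The change was 1.69, 1.66 and 1.68 in the WT and 2.53, 2.44 and 2.52 in the mutant mice, a difference of 0.84 (SE 0.133, limma adjusted p = 0.00422).

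Uhrf1, whose product recruits the maintenance DNA methyltransferase to replicated DNA, rose to a higher level in the mutant. In WT mice it rose from 42, 39.2 and 40.9 CPM to 77.8, 75.2 and 74.5 CPM. Mutant mice went from 46.3, 37.5 and 37.2 CPM to 109, 133 and 114 CPM. The genotypes overlapped in MHC I low and were separate in MHC I high cells, and the difference in change was 0.69 (SE 0.114, limma adjusted p = 0.00489). Rrm1, the large subunit of ribonucleotide reductase, which makes the deoxynucleotides for DNA synthesis, rose from 53.1, 55.5 and 57.7 CPM to 94.5, 106 and 98.3 CPM in WT mice. In the mutant mice it rose from 58.6, 58.7 and 57.3 CPM to 131, 160 and 148 CPM. Here too the later fraction was the one in which all mutant samples exceeded all WT samples, with a difference in change of 0.51 (SE 0.0876, adjusted p = 0.00489).

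The MCM2 to MCM7 proteins form the replicative helicase. Mcm3 rose from 50.8, 50.8 and 47.8 CPM to 115, 131 and 113 CPM in WT mice. Mutant mice went from 48.4, 50.7 and 53.4 CPM to 156, 184 and 172 CPM, a difference in change of 0.53 (SE 0.101, limma adjusted p = 0.0124). Mcm2 (0.54, adjusted p = 0.0441) and Mcm4 (0.37, adjusted p = 0.0441) also rose more in the mutant. The remaining replication genes that passed were Fen1, the flap endonuclease of lagging-strand synthesis (0.62), Prim2, a primase subunit (0.5), and Slbp, which binds histone mRNA (0.42), with adjusted p between 0.0441 and 0.0498. Of the 9 called genes, Prim2 and Slbp were called by none of the 3 paired tests and Hells, Uhrf1, Rrm1, Mcm2 and Mcm3 by all 3.

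Related genes outside the list were among the calls and are named here after their values were seen. Bard1, the partner of BRCA1, rose by 1.04, 1.23 and 1.74 in WT and by 2.02, 2.29 and 2.76 in mutant mice (difference 1.01, SE 0.214, limma adjusted p = 0.0267). Brip1, a helicase that binds BRCA1, differed by 0.79 (adjusted p = 0.0267). Ctps, which makes CTP, went from 37.5, 39.3 and 41.1 CPM to 36.6, 42.5 and 41.3 CPM in WT mice and from 33.3, 31 and 32.9 CPM to 45.5, 49.4 and 44.2 CPM in mutant mice (difference 0.48, SE 0.0952, adjusted p = 0.0176). The WT change of 0.04 did not pass the test (adjusted p = 0.636), and the level rose in the mutant by 0.52 (adjusted p = 8.39e-07). Cad, of pyrimidine synthesis (0.32, adjusted p = 0.0441), Gart, of purine synthesis (0.31, adjusted p = 0.0441), and Mthfd1, of folate metabolism (0.43, adjusted p = 0.0234), also had a higher change, and these 3 are named after their values were seen. Cad and Gart were called by none of the 3 paired tests.

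Genes of mitosis and the G2 and M phases moved in the same direction with fewer calls. Of 99 tested, 3 had a higher change in the mutant, namely Gtse1 (0.81, limma adjusted p = 0.0441), H2ax (0.46, adjusted p = 0.0441) and Kif23 (0.44, adjusted p = 0.0215), and 92 differences were positive with a median of 0.37. These 3 calls compare with 0.297% of all genes called higher. The mutant differences did not overlap the WT ones in 23 (23.2%), all higher, against 7.45% of all genes. The median was 0.2, with 84 positive, without Hoil ΔCd4 mouse 3. The calls were 0 without that mouse or WT mouse 3 (with limma without the replicate block also 0), and 1 without WT mouse 1, WT mouse 2, Hoil ΔCd4 mouse 2 or Sharpin cpdm mouse 2 or 3. Kif23, a motor of cytokinesis, changed by -0.04, -0.19 and -0.25 in the WT mice and by 0.3, 0.1 and 0.38 in the mutant mice. Mean changes over the list were 1.74, 1.56 and 1.43 in WT and 1.62, 1.89 and 2.16 in Hoil ΔCd4 mice, which overlapped. Against WT, 63 of the 99 genes were higher in MHC I high cells (3.84% of all genes) and 2 in MHC I low cells (0.422% of all genes).

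**Figure D2:**
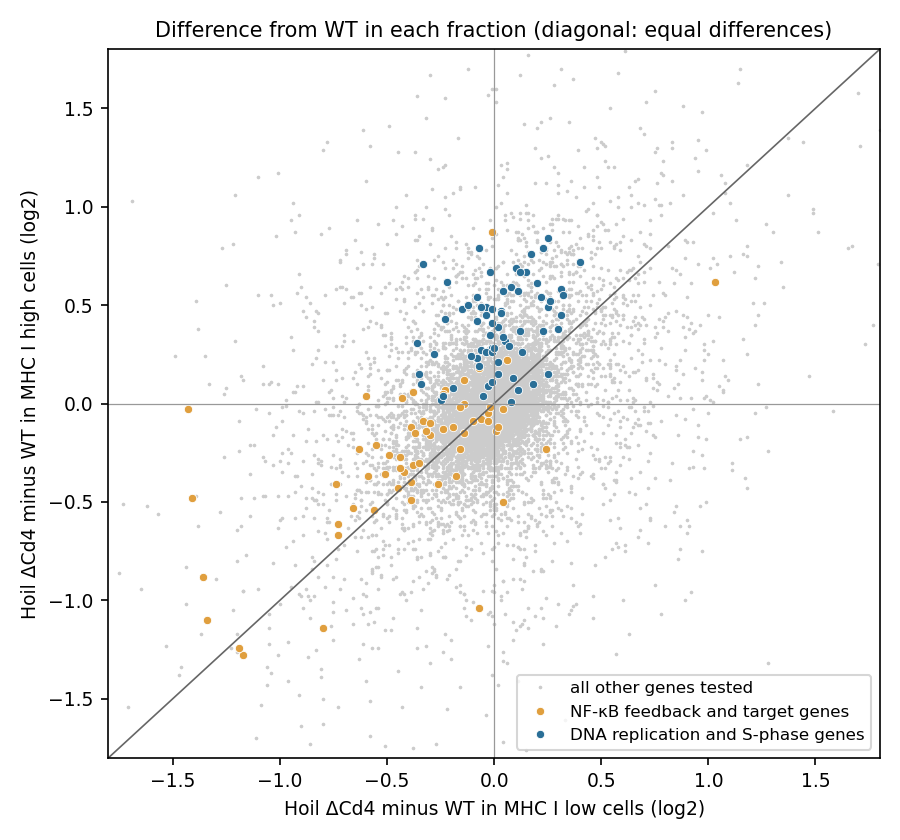
Difference between Hoil ΔCd4 and WT mice at the earlier stage (x axis) and at the later stage (y axis), both on the log2 scale, with 1 point per gene; 12746 of 12798 genes lie within the axes, and 2 of the 62 NF-κB genes lie outside. Replication genes (blue) spread around 0 on the x axis and lie above 0 on the y axis, whereas NF-κB genes (orange) lie mostly below 0 on both.

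Because many replication genes are regulated by E2F factors, the 250 bases before each gene's annotated starts (RefSeq, GRCm38.p6) were searched on both strands for the letters TTTGGCGC, TTTCCCGC, TTTCGCGC and TTTGCCGC. A match was present for 14 of the 53 replication genes with a promoter in the reference (26.4%), for 4 of 32 genes with a higher change (12.5%; 3 of 31 without Rbck1, whose promoter is deleted in the mutant), for 0 of 8 with a lower change and for 398 of 9985 genes tested (3.99%). Over all 32851 promoters of the reference the share was 1.86%. The matches of the 4 called genes are shown 5′ to 3′ on the strand of the gene, with the matching letters in capitals. They lie at chr1:71103163-71103192 (Bard1, minus strand), chr19:38930917-38930946 (Hells, plus), chr2:152332539-152332568 (Rbck1, minus, where the match is to the reverse strand) and chr17:56304117-56304146 (Uhrf1, plus).
Bard1: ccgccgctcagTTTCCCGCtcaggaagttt
Hells: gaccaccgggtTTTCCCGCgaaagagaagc
Rbck1: aaccaagtgtgGCGCGAAAgtgccaggagc
Uhrf1: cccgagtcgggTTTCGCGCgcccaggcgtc
Each is a match of letters and was not tested as a site.

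The genes that mark the double-positive stage were recorded beside the replication genes, since double-positive thymocytes derive from dividing cells. Of 9 markers tested, 1, Arpp21, was called, the median difference in change was 0.41, and 4 did not overlap between genotypes, where 0.398% of all genes were called and 13.6% did not overlap. Their summed level was 1471 to 1516 CPM in WT and 1626 to 1791 CPM in mutant MHC I low cells, and 1897 to 2154 CPM in WT and 2106 to 2527 CPM in mutant MHC I high cells. Arpp21, which encodes an RNA-binding protein of immature thymocytes, stood at 27.8, 25 and 30 CPM in MHC I low and 24.5, 19.4 and 19.1 CPM in MHC I high cells of WT mice. In mutant mice it stood at 34.2, 33.6 and 33.3 CPM and at 35.6, 44.7 and 45.9 CPM. Mutant samples were above WT samples in both fractions, although only the later difference passed the test (0.3, limma adjusted p = 0.387 and 1.07, adjusted p = 1.68e-06). Arpp21 fell in WT (-0.44, limma adjusted p = 0.00037) and rose in mutant mice (0.33, adjusted p = 0.0235). Rag1, the recombinase of receptor assembly, changed by -1.04, -0.82 and -0.98 in the WT mice and by -0.61, -0.09 and -0.22 in the mutant mice. These did not overlap. The difference of 0.73 (SE 0.205) had a limma adjusted p of 0.196, whereas all 3 paired tests called it. Of all 41 genes tested from a wider list of the stage, Arpp21 alone was called, with a median difference of 0.1. Whether immature cells in the MHC I high gate had a part in the replication result was not tested.

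Cish, a STAT5 target that restrains cytokine signalling, gave the clearest difference among genes of cytokine response. In WT mice it rose from 15, 14.7 and 15.1 CPM to 27.5, 30.9 and 32.3 CPM. The mutant mice went from 10.6, 11.5 and 13 CPM to 38.1, 42.1 and 56.4 CPM. The mutant was thus below all WT samples in MHC I low cells and above all in MHC I high cells, although only the second difference passed the test (-0.36, limma adjusted p = 0.216 and 0.56, adjusted p = 0.00226). The difference in change was 0.92 (SE 0.15, adjusted p = 0.00422). Of the 46 genes tested from a list of cytokine receptors, STATs and SOCS genes, Cish and Pim1 were called and 27 had a negative difference (median -0.02). Both calls were higher, where 0.297% of all genes were called higher. Il7r and Il2rb, receptor chains for IL-7 and for IL-2 and IL-15, changed by amounts that did not differ beyond error (0.09, adjusted p = 0.704, and 0.21, adjusted p = 0.425).

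Of the genes of NF-κB feedback and response, a minority passed against WT, all of them lower in the mutant. In MHC I low cells 26 of 62 were lower, where 0.563% of all genes were called lower, and 22 in MHC I high cells, where 2.81% were. Limma called 0 higher in either fraction, with 0 and 3 at an unadjusted p under 0.05, and the median differences were -0.36 and -0.22. Only Map3k8 and Pim1 passed the test of the difference in change, both higher, where 0.297% of all genes were called higher. Of the 62 differences 41 were positive (median 0.11), and in 22 (35.5%) the mutant lay above all WT mice, against 7.45% of all genes. Without WT mouse 3 the median was 0.07, and the calls were 0 without that mouse or Hoil ΔCd4 mouse 3 and 1 without Hoil ΔCd4 mouse 2. Mean changes over the 62 genes were 0.17, 0.31 and 0.19 in WT and 0.35, 0.35 and 0.33 in mutant mice, which did not overlap. Map3k8, a kinase that is held by NF-κB1 and activates ERK signalling, went from 11.7, 12 and 13.1 CPM to 14.7, 10.9 and 12.2 CPM in WT mice. In the mutant mice it went from 5.52, 3.37 and 4.75 CPM to 8.96, 8.18 and 9.7 CPM. All mutant samples were below all WT samples in either fraction, and the deficit shrank from -1.41 to -0.48 (difference in change 0.93, SE 0.195, limma adjusted p = 0.0258).

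Pim1, a kinase that promotes survival and growth and is induced by cytokines and by NF-κB, fell in WT mice from 41.9, 41.6 and 44.1 CPM to 31.8, 27.8 and 29.7 CPM. In Hoil ΔCd4 mice it stood at 29.6, 30 and 25.5 CPM and then at 31.1, 29.7 and 31.3 CPM. The mutant was below WT in MHC I low cells (-0.6, limma adjusted p = 0.000463) and overlapped with it in MHC I high cells (0.04, adjusted p = 0.854), a difference in change of 0.63 (SE 0.116, adjusted p = 0.00805). The feedback inhibitor genes Nfkbia and Tnfaip3 were lower than WT in both fractions, and their differences in change did not pass. Nfkbia differed from WT by -0.59 at the earlier and -0.37 at the later stage (difference in change 0.23, adjusted p = 0.225), and Tnfaip3 by -0.45 and -0.43 (0.01, adjusted p = 0.974). Birc3, Nfkbie, Relb, Gadd45b, Tnfrsf4, Tnfrsf18 and Il2ra had differences in change between -0.11 and 0.24, with adjusted p from 0.494 to 0.976.

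Myc, which drives cell growth, was near the threshold. It rose by 0.23, 0.43 and 0.26 in WT and by 0.52, 0.86 and 0.75 in mutant mice (0.45, SE 0.107, limma adjusted p = 0.0562), and 2 of the 3 paired tests called it. Bcl6, a repressor of mature T-cell programmes, fell by 1.62, 1.76 and 1.7 in WT and by 2.17, 1.99 and 1.99 in mutant mice (-0.35, adjusted p = 0.0735), and 2 paired tests called it. The interferon response genes rose by a median of 1.17 in WT and 1.21 in mutant mice. None of the 69 tested differed in its change by limma, and 1 had an unadjusted p under 0.05. edgeR and DESeq2 called 0 as well. Irf1, Irf7 and Irf9, which transmit interferon signals, had differences in change of 0.07, -0.15 and -0.04, while Irf1 was lower than WT in both fractions (-0.42 and -0.35) and Irf7 (-0.44, adjusted p = 0.00724) and Irf9 (-0.25, adjusted p = 0.00669) in MHC I high cells. Of the 69 interferon genes, 5 were lower at the earlier and 11 at the later stage, and 2 were higher at the later stage. Over all genes tested, 0.563% were lower at the earlier stage, and 2.81% were lower and 3.84% higher at the later stage. Slc2a3, a glucose transporter, differed by 0.2 (adjusted p = 0.356), and limma called none of 32 glycolysis genes, 30 sterol synthesis genes, 45 T-cell receptor response genes and 27 MHC I presentation genes. At an unadjusted p under 0.05, limma passed 8, 7, 8 and 3 of these, and the alternatives gave at most 2, 1, 1 and 0 calls. Of 45 BCL-2 family and p53 target genes, Gtse1 alone was called (median -0.03), where 0.297% of all genes were called higher.

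**Figure D3:**
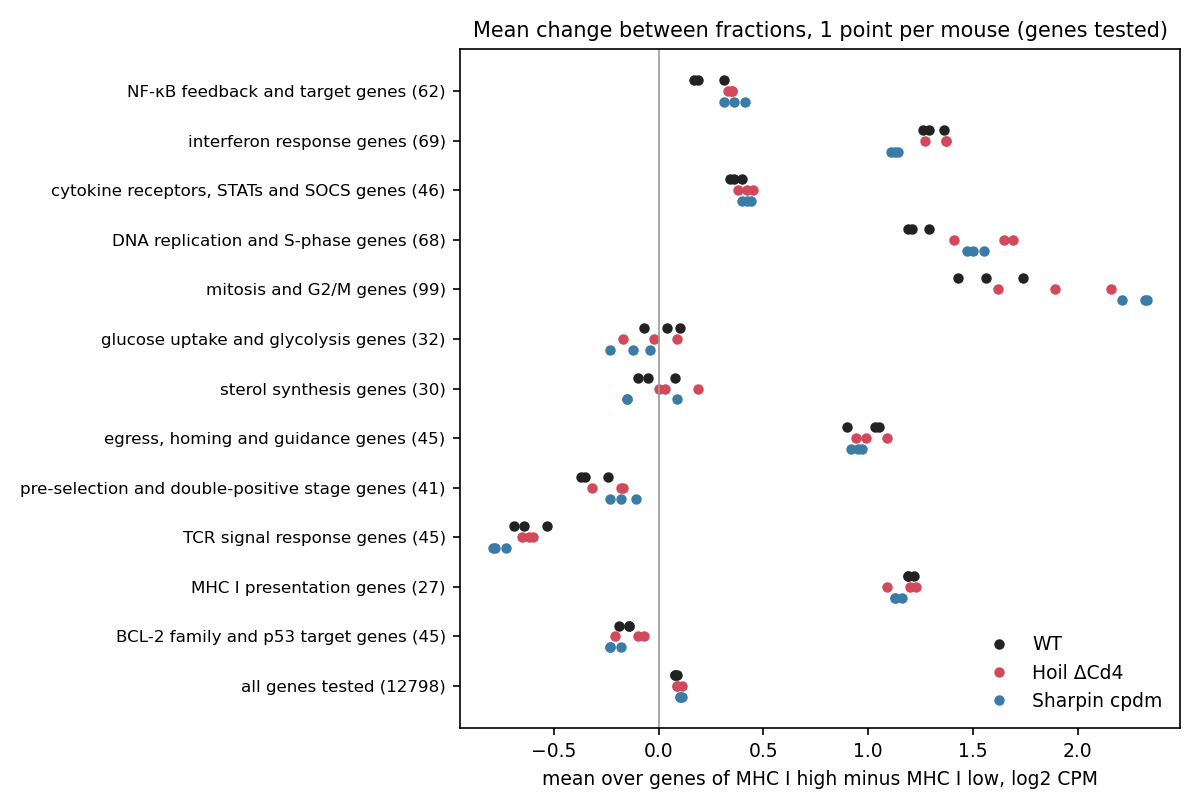
Mean over the genes of each list of the change between the earlier and the later fraction (x axis, log2 CPM), with 1 point for each of 3 WT (black), 3 Hoil ΔCd4 (red) and 3 Sharpin cpdm mice (blue) and the number of genes tested in brackets. WT and Hoil ΔCd4 mice are separate for the replication genes (1.19 to 1.29 against 1.41 to 1.69). They are narrowly separate for the NF-κB genes (0.17 to 0.31 against 0.33 to 0.35), with Sharpin cpdm mice at 0.31 to 0.41. The mean over all genes lies between 0.08 and 0.11 in every mouse.

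Genes of migration and adhesion gave 1 call among 45, where 0.297% of all genes were called higher. Cxcr4, the receptor that holds immature thymocytes in the cortex, fell in WT mice from 69.5, 67.9 and 75.9 CPM to 34.8, 32.5 and 35.9 CPM. In Hoil ΔCd4 mice it fell from 64.4, 58 and 59.8 CPM to 39.9, 45.8 and 58.2 CPM. The mutant samples were below all WT samples at first and above all later, and mutant mouse 3 barely changed (-0.04). Only the later difference from WT passed the test (-0.23, limma adjusted p = 0.416 and 0.46, adjusted p = 0.00247). The difference in change was 0.69 (SE 0.123, limma adjusted p = 0.00805). Rapgef3, an exchange factor for RAP1 that responds to cyclic AMP, fell by 1.32, 1.27 and 1.77 in WT and by 0.81, 0.42 and 0.32 in mutant mice (1.09, SE 0.206, adjusted p = 0.0102). A pair of further genes with a less negative change are named after their values were seen. Cd40lg, the ligand of CD40, fell by 1.49, 1.14 and 1.4 in WT and by 0.89, 0.95 and 0.97 in mutant mice (0.43, adjusted p = 0.0284), and Tiam1, an activator of RAC, fell by 0.53 in WT and had a change of -0.1 in mutant mice (0.43, adjusted p = 0.0438).

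Other genes with a higher change included Gzma, granzyme A of cytotoxic cells. Gzma rose from 1.47, 1.41 and 1.88 CPM to 4.28, 4.96 and 5.24 CPM in WT mice. In mutant mice it rose from 1.6, 0.692 and 1.42 CPM to 10.8, 13.6 and 19.5 CPM. Mutant mice exceeded WT mice in MHC I high cells only, a difference in change of 1.93 (SE 0.377, limma adjusted p = 0.0176) that rests on at most 24 counts a sample in MHC I low cells. Fkbp5, a cochaperone of steroid receptors, was level in WT mice (changes of -0.01, 0.01 and 0.02) and rose by 0.2, 0.54 and 0.52 in mutant mice (0.43, adjusted p = 0.0102). Sephs1, a homologue of selenophosphate synthetase, differed by 0.38 (adjusted p = 0.0215). Hes1, a Notch target named after its values were seen, had the largest fitted difference, but mutant MHC I low samples held at most 3 counts, and no fold change is given. It stood at 0.218, 0 and 0 CPM in MHC I low and 0.152, 0.909 and 1.15 CPM in MHC I high cells of mutant mice, against 0.64, 0.256 and 0.391 and 0.0808, 0.251 and 0.276 CPM in WT mice. It was the 1 called gene whose differences overlapped between genotypes.

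**Figure D4:**
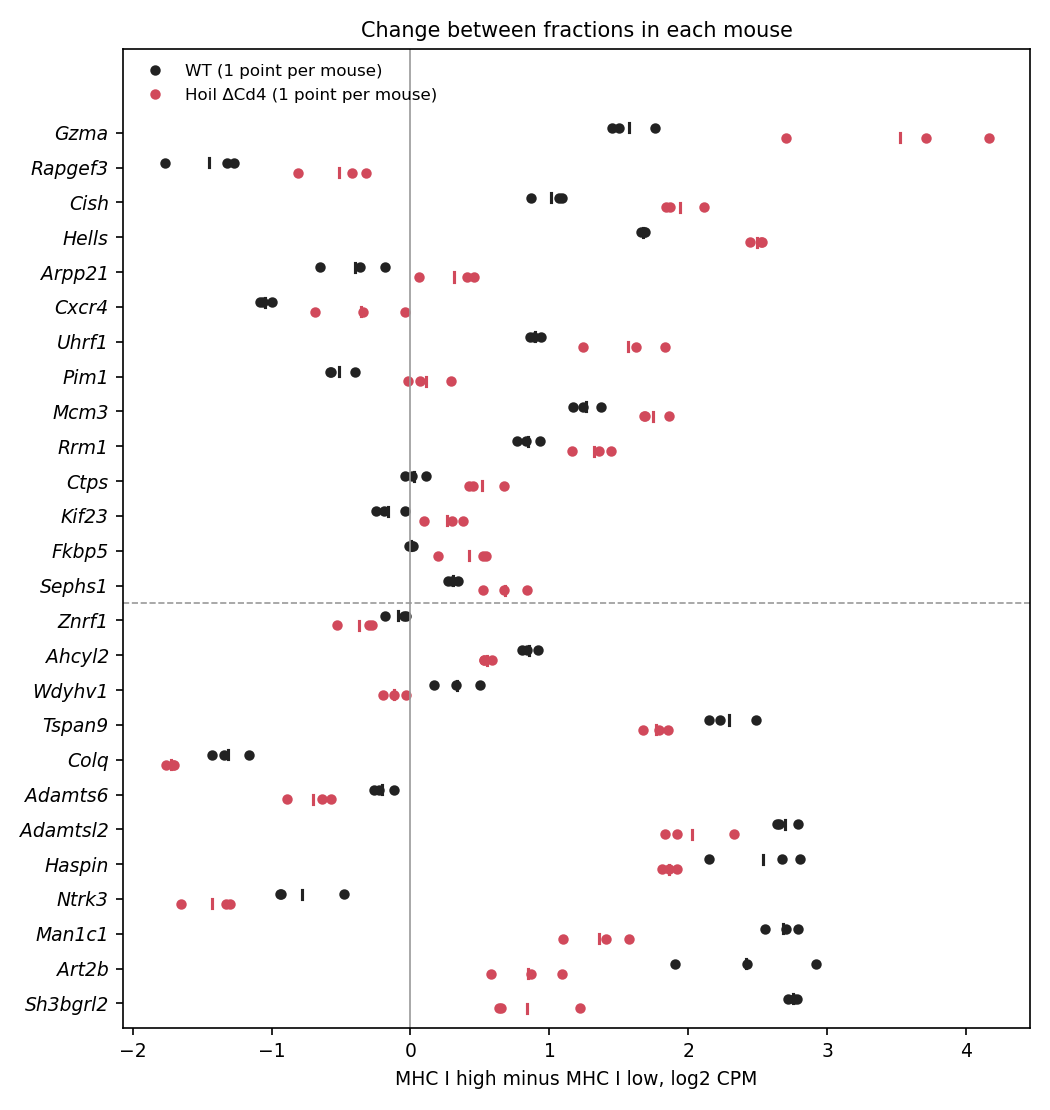
Change between the earlier and the later fraction (x axis, log2 CPM) of 26 named genes in each of 3 WT (black) and 3 Hoil ΔCd4 mice (red), with bars at the group means and a dashed line between the 14 genes with a higher and the 12 with a lower change in the mutant. No gene drawn has overlapping points of the 2 genotypes, which the rule for naming them required, and Rbck1 and Klrd1 are left out for their range.

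Among the genes with a lower change, Sh3bgrl2, Man1c1 and Adamtsl2 were higher than WT in mutant MHC I low cells. Sh3bgrl2, which encodes a small protein with a thioredoxin-like fold, rose in WT mice from 0.512, 0.576 and 0.469 CPM, at most 9 counts, to 3.88, 4.2 and 3.65 CPM. Mutant mice went from 2.69, 2.25 and 2.44 CPM to 6.38, 3.56 and 3.84 CPM. The mutant exceeded WT in MHC I low cells by 2.11 (limma adjusted p = 1.96e-05) and overlapped with it in MHC I high cells (0.16, adjusted p = 0.758), a difference in change of -1.95 (SE 0.327, adjusted p = 0.00481). Man1c1, a mannosidase that trims N-glycans in the Golgi, had the same pattern. It rose in WT mice from 1.6, 1.22 and 1.64 CPM to 10.8, 8.85 and 10 CPM and in mutant mice from 5.08, 3.63 and 4.07 CPM to 11, 10.9 and 10.9 CPM. The difference in change was -1.33 (SE 0.238, adjusted p = 0.00805). Adamtsl2, a secreted glycoprotein of the matrix, differed from WT by 0.65 (adjusted p = 0.00205) in MHC I low cells and by 0.03 (adjusted p = 0.903) in MHC I high cells.

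The remaining 10 genes of this direction did not pass against WT in MHC I low cells, and 8 of them were lower than WT in MHC I high cells, the exceptions being Art2b and Wdyhv1. Tspan9, a tetraspanin, rose to 139, 147 and 127 CPM in WT and to 88.7, 77.1 and 81.1 CPM in mutant MHC I high cells, with no overlap, from 31.3, 26 and 27.1 and 24.5, 22.2 and 25.4 CPM (difference in change -0.48, SE 0.109, limma adjusted p = 0.0438). Haspin, the kinase that phosphorylates histone H3 in mitosis, rose less in the mutant (-0.72, adjusted p = 0.0284), against the direction of the mitosis list, of which it was not a member. Ahcyl2, of the adenosylhomocysteinase family, (-0.31) rose less, and Colq, the anchor of acetylcholinesterase (-0.49), the metalloprotease gene Adamts6 (-0.53), the receptor gene Ntrk3 (-0.75) and the ubiquitin ligase gene Znrf1 (-0.3) had a more negative change in the mutant, with adjusted p from 0.00805 to 0.0498. Ntrk3 was called by none of the 3 paired tests. Art2b, an ADP-ribosyltransferase of the T-cell surface, rose by 2.42, 1.9 and 2.92 in WT and by 0.58, 1.09 and 0.87 in mutant mice (-1.53, adjusted p = 0.0267). Reads of Art2b can be shared with its close relative Art2a and its count is uncertain. Wdyhv1 rose in WT mice (0.36, adjusted p = 1.3e-05) and had a change of -0.1 in mutant mice (-0.46, adjusted p = 0.0284). Klrd1, a receptor of natural killer and cytotoxic T cells, had at most 1 count in any WT MHC I low sample, so that its fitted difference depends on the prior count and is no measure of a fold change, and none of the 3 paired tests called it. It reached 3.72, 3.39 and 2.34 CPM in WT and 1.21, 0.455 and 0.768 CPM in mutant MHC I high cells.

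Sharpin cpdm mice lack another LUBAC component, and their change between fractions was compared directly with that of Hoil ΔCd4 mice. That test called 103 genes (0.805% of those tested, limma), 53 higher and 50 lower in Hoil ΔCd4 mice. That count was 19 without Hoil ΔCd4 mouse 1, 23 without mouse 2, 43, 29 and 18 without Sharpin cpdm mouse 1, 2 and 3, and 158 without WT mouse 1. Of the 51 genes above, 7 were called in this test with the same sign, namely Rbck1 (3.15), Cish (0.95), Mcm3 (0.43), Tiam1 (0.44), Cd40lg (0.51), Wdyhv1 (-0.41) and Adamtsl2 (-0.63). Cish changed by 1.33, 0.91 and 0.82 in Sharpin cpdm mice and by 1.84, 1.87 and 2.11 in Hoil ΔCd4 mice, which did not overlap (adjusted p = 0.00131). Hells changed by 2.0, 2.1 and 2.07 in Sharpin cpdm mice, between its values in WT and in Hoil ΔCd4 mice (difference 0.44, adjusted p = 0.104). For Arpp21 (-0.18), Gzma (0.11), Gtse1 (0.06) and Tspan9 (0.01) the 2 mutants did not differ beyond error (adjusted p from 0.632 to 0.987).

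The mitosis list separated the 2 mutants. Its mean change was 2.21, 2.33 and 2.32 in Sharpin cpdm mice, above all Hoil ΔCd4 mice, and 7 of its 99 genes rose less in Hoil ΔCd4 than in Sharpin cpdm mice and 0 more (median difference -0.3), against 0.391% of all genes called lower and 0.414% called higher in this test. For the replication list, 1 gene rose more and none less in Hoil ΔCd4 mice (median 0.08), with mean changes of 1.47, 1.55 and 1.5 in Sharpin cpdm mice. Measured against the same WT mice, 20 of the 51 genes were also called in Sharpin cpdm mice with the same sign, where 3.13% of all genes were called and 2.2% were called higher. In that comparison 12 of the 68 replication, 57 of the 99 mitosis and 11 of the 62 NF-κB genes were called higher and 0 lower. The counts called higher in Hoil ΔCd4 mice were 9, 3 and 2. Mean changes of the NF-κB list were 0.31, 0.41 and 0.36 in Sharpin cpdm mice and 0.17, 0.31 and 0.19 in WT mice. Since both mutants share the WT samples, these counts are given as a description only.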

How the data were processed

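Reads were 75 bases long and single-ended. The authors aligned them to mm10 (subread, in Rsubread) and summarised them by gene (featureCounts, inbuilt RefSeq annotation). The deposited values are raw counts, without pooling of replicates. Settings for strand and for reads with several matches are not given in the sources used here, so counts of overlapping, antisense and closely related genes are uncertain. Of 27179 genes, 25275 were matched by Entrez Gene ID to RefSeq (GRCm38.p6), whereas 1904 holding 0.655% of the counts had no match.

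The model of the study's methods was followed. Genes with 0.5 CPM in 3 samples were kept, and Xist, genes of chromosome Y, and genes with a predicted or no symbol were left out. TMM-scaled log2 CPM (prior count 1) of all 18 samples were fitted in limma with 6 group means, sample quality weights (0.6282 to 2.423), the mouse as a random block (correlation 0.224) and a robust, trended empirical Bayes step. The Benjamini-Hochberg adjustment covered all genes tested. An exact permutation test of 3 against 3 mice cannot give a two-sided p below 0.1, so none is given for single values. CPM of tested genes were TMM-scaled, and CPM of cell type markers, Xist and Ddx3y were of all counts. Both fractions of a mouse come from 1 animal, and their deviations correlated (Pearson r from 0.0702 to 0.256 across genes in the 9 mice), which pairs the samples. All pairs of samples within a group differed by more than sampling noise (chi-square per degree of freedom of 5 or more). In the main fit, p-values rest on a spread estimated for each gene over all 18 samples, with 3 mice per group, and moderated across genes.

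Alternatives were edgeR's quasi-likelihood test and DESeq2 with and without the mouse as a block, limma on per-mouse differences, limma voom, and other filters, scaling, prior count, weights, sex and omitted mice. Tests were tried on simulated counts. Named were Rbck1, the 15 genes with the smallest p in each direction among called genes without overlap, other called genes of the lists, genes the study names (1 of them is not reported here), and genes that check the sort. Fewer than 15 met this rule in the lower direction. The genes, the 12 lists and the tests were chosen with earlier results of these data known. Versions were DESeq2 1.42.0, edgeR 4.0.16, statmod 1.5.0 and limma 3.58.1, in R 4.3.3. A table of the whole series held the same counts and was not used.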

Additional observations from a re-analysis of the deposited data

Results flagged for a closer look

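Named genes are listed here because a test of the difference itself found their change between fractions to differ between Hoil ΔCd4 and WT mice (limma, adjusted p up to 0.0498). Values are the mutant change minus the WT change on the log2 scale. The change was higher in the mutant for Rbck1 (3.07), Hells (0.84), Cish (0.92), Uhrf1 (0.69), Rrm1 (0.51), Cxcr4 (0.69), Pim1 (0.63), Fkbp5 (0.43), Rapgef3 (1.09), Mcm3 (0.53), Gzma (1.93), Ctps (0.48), Arpp21 (0.78), Kif23 (0.44), Sephs1 (0.38), Map3k8 (0.93), Mcm2 (0.54), Mcm4 (0.37), Prim2 (0.5), Fen1 (0.62), Slbp (0.42), H2ax (0.46) and Gtse1 (0.81). The change was lower for Sh3bgrl2 (-1.95), Man1c1 (-1.33), Adamts6 (-0.53), Colq (-0.49), Art2b (-1.53), Ahcyl2 (-0.31), Wdyhv1 (-0.46), Haspin (-0.72), Tspan9 (-0.48), Adamtsl2 (-0.62), Klrd1 (-2.5), Znrf1 (-0.3) and Ntrk3 (-0.75). The value of Klrd1 rests on at most 1 count a sample in WT MHC I low cells and depends on the prior count, so it is no bound on a fold change. Rbck1 is the targeted gene, and its value rests on 4 to 9 counts a sample in mutant MHC I low cells.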

How the results depend on the processing

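The number of genes whose change differed between Hoil ΔCd4 and WT mice (51) was close under edgeR with the mouse as a fixed replicate block (73), without TMM (57), with a prior count of 3 (55) and with at least 10 counts in every sample (62). With sex as a covariate it was 36, of which 22 were among the 51. All 3 WT mice were female, so the effect of sex was estimated only within the mutant genotypes. The number was 33 with DESeq2 and 78 with limma on per-mouse differences, which keep the replicate block, and 1 with edgeR, 20 with DESeq2 and 6 with limma without it. It was 26 with voom, 23 with only the 12 samples compared, 1 with no filter on low counts, 30 with predicted genes kept and 29 without sample weights. With 1 mouse left out it ranged from 0 to 46. For Hoil ΔCd4 against Sharpin cpdm mice (103) the counts with the replicate block were 347 (edgeR), 210 (DESeq2) and 394 (per-mouse differences). Without it they were 10, 67 and 13 (limma). Other counts were 209 with only the 12 samples compared, 25 with no filter, 177 with at least 10 counts and 52 with sex, and from 18 to 158 with 1 mouse left out. The cause of these shifts was not tested. Rbck1 ranged from 2.71 to 3.31 with 1 mouse left out.

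Signs turned only for genes that were not called. Ccr7 was 0 without TMM and from -0.07 to 0.05 with 1 mouse left out. Gadd45b was 0.05 on per-mouse differences, 0.02 with sex and from -0.18 to 0.07 with 1 mouse left out. Tnfrsf18 was 0.01 with edgeR (both fits), DESeq2 with the block, per-mouse differences and no weights, 0 with DESeq2 without the block and 0.08 with sex, and ranged from -0.06 to 0.04 with 1 mouse left out. With 1 mouse left out H2-K1 ranged from -0.03 to 0.14, Tnfaip3 from -0.05 to 0.07 and Tnfrsf4 from -0.05 to 0.22. The calls of replication genes and of the other named genes rest on 3 mice a genotype, and low counts limit Rbck1, Klrd1, Hes1, Gzma and Sh3bgrl2.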
